A study of Homo sapiens with 20 samples.

Results

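The TGF-beta superfamily ligands are secreted growth factors that share a cystine-knot fold. The 33 ligand genes described here were chosen by gene name: TGFB1 to TGFB3, the bone morphogenetic proteins (BMPs), the growth differentiation factors (GDFs) including GDF15 and myostatin (MSTN), the inhibin and activin subunits, NODAL, LEFTY1, LEFTY2 and AMH. They are 33 of 57536 genes with a transcript in the files. They were measured in NGP, an established neuroblastoma cell line, by stranded poly(A) RNA-seq of cells from 6-well plates. The 10 nutlin samples received nutlin-3 as a racemic mixture at 8 µM and the 10 vehicle samples received its solvent, ethanol. The exposure time is not given in the sources used here. All samples come from 1 cell line with no further genetic change named in the labels, and the study describes them as biological replicates of that line.

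Most of these ligands are made as precursors that proteases cleave, and mature as dimers. A dimer brings together type II and type I serine/threonine kinase receptors, which phosphorylate SMAD proteins. TGF-betas, activins and NODAL act mainly through SMAD2 and SMAD3, and BMPs and AMH act mainly through SMAD1, SMAD5 and SMAD9. GDF15 differs from the rest of the family in binding GFRAL, which signals through the receptor tyrosine kinase RET. Nutlin-3 blocks the binding of MDM2 to p53 and so stabilises p53, and GDF15 is a long-known p53 target gene.

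The samples held 14455477 to 19532971 estimated counts in the vehicle condition and 15078052 to 17442896 in the nutlin condition. MDM2, itself a p53 target, went from 199 to 290 CPM (counts scaled to library size) in vehicle samples to 4797 to 6005 CPM in nutlin samples, a 22.7-fold difference. The 8 adrenergic neuroblastoma markers summed to 2990 to 3656 TPM (transcripts scaled to length and library size) in vehicle samples and 2664 to 3260 TPM in nutlin samples, with none at a median of 0. Of these 8 markers, 2 were higher after nutlin and 5 lower, or 87.5% called against 58.8% of all genes tested. The 18 markers of other cell types summed to 14.5 to 19.1 TPM in vehicle samples and 20.7 to 26.5 TPM in nutlin samples. The defining Schwann cell and erythroid genes SOX10 and HBB had a median of 0 in both conditions. Of these 18 genes, 5 were higher after nutlin, among them COL1A1, CD68, LYZ and PECAM1, and 4 were lower, among them LUM, PDGFRB and VWF. That is 56.2% of the 16 that were tested, near the 58.8% of all genes tested. The part of the markers of other cell types in the results on ligands was not tested. CPM below was computed with TMM-normalized library sizes and compares a gene between samples, and TPM is used to compare genes with each other, because it is corrected for transcript length. The log2 fold change (LFC) is nutlin against vehicle, given with its standard error (SE), and a gene was called when its adjusted p from the edgeR quasi-likelihood test was below a 5% false discovery rate (FDR) over all genes tested. In bulk samples, a change in the number of cells that make an mRNA and a change in the mRNA made per cell cannot be told apart.

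Of the 33 ligand genes, 27 had at least 1 count in each condition and were tested. BMP15, GDF2 and GDF3 had 0 counts in every sample. BMP5, BMP10 and LEFTY2 had 0 counts in the vehicle samples and 2, 3 and 1 counts in the 10 nutlin samples together. A count of 0 allows up to 3 counts, or 0.208 CPM in the shallowest library, so these 6 ligands were not detectable or barely detectable at this depth. The counts are of reads without molecular identifiers, and the limit of 3 counts covers counting error alone. The intervals of the LFC given below rest on the SE of the edgeR fit, which also takes in the spread between replicates.

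Of the 27 genes tested, 14 were higher after nutlin, 5 were lower and 8 were not called. That is 70.4% called, against 58.8% of all 27697 genes tested, where 32.3% were higher and 26.5% lower. The median LFC of the 27 ligand genes was 0.61 and that of all genes tested was 0.19. In 7 ligand genes the nutlin and vehicle samples did not overlap in CPM, all of them higher after nutlin: GDF15, INHBA, BMP7, INHBE, INHBC, GDF9 and TGFB1. Over all genes tested, 28.8% did not overlap (12.2% higher and 16.6% lower). Of the called ligands, 8 had an LFC above 1 and 1 had an LFC below -1. Among the 8, BMP6, INHBB and GDF5 had only 4 to 9 counts over all vehicle samples. The share of all genes beyond these limits was not counted. Of the 14 ligand genes averaging 1 CPM or more over the 20 samples, 12 were called. Of all genes tested with such an average, 12159 of 15168 were called. The other ligand calls rest on few reads. These counts describe the 27 genes that passed the filter and not all 33.

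**Figure D1:**
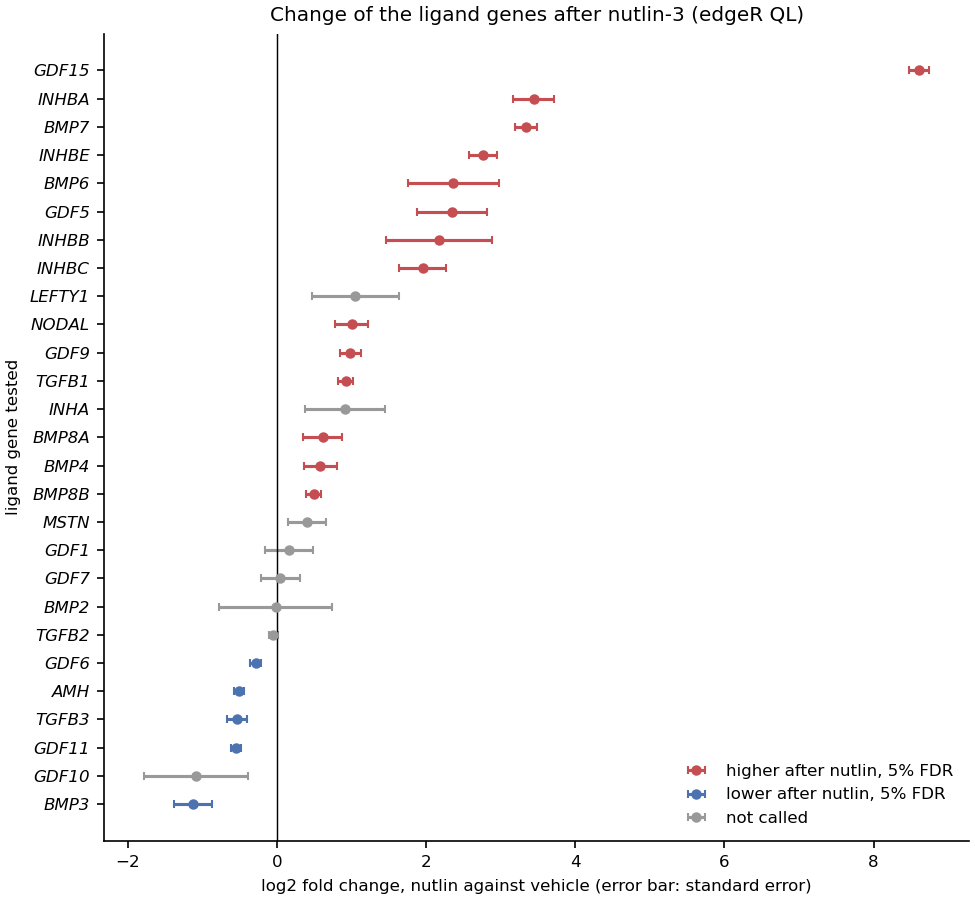
Log2 fold change of the 27 ligand genes tested, nutlin against vehicle, with the standard error as bar, coloured by the call at 5% FDR. GDF15 stands at 8.61, the next 2 genes (INHBA and BMP7) at 3.44 and 3.34, and the wide bars belong to genes with few counts such as BMP6 and INHBB.

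In vehicle samples the level of the ligand mRNAs was dominated by AMH. Their TPM values summed to 87.0 to 122 per sample, and AMH held 60.3% to 69.8% of the sum. AMH (median 74.2 TPM) was followed by GDF11 (13 TPM), TGFB2 (9.74 TPM), GDF6 (3.73 TPM), TGFB3 (2.30 TPM), TGFB1 (1.78 TPM) and GDF1 (1.62 TPM), and these 7 genes were the ones with a median of at least 1 TPM. GDF15 was 11th in order at 0.562 TPM, between NODAL and BMP8A, and its range overlapped theirs. Among neighbours in this order, the ranges over samples were separate for AMH and GDF11, for TGFB2 and GDF6, and for BMP7 and INHBE. All other neighbours overlapped, although GDF11 was above TGFB2 within each of the 10 vehicle samples.

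In nutlin samples GDF15 was the most abundant ligand mRNA at a median of 203 TPM, followed by AMH (48.1 TPM), GDF11 (10.1 TPM), TGFB2 (9.02 TPM) and BMP7 (3.97 TPM). The sum over the ligand genes was 261 to 332 TPM, and GDF15 held 59.2% to 72.3% of it, against 0.101% to 1.29% in vehicle samples. AMH held 13.8% to 22.7%. The median was at least 1 TPM for 12 ligand genes in nutlin samples. GDF15 and AMH, AMH and GDF11, and TGFB2 and BMP7 were the neighbours with separate ranges. BMP7 moved from the 14th place to the fifth, where its range overlapped that of GDF6. The place of AMH depends on transcripts annotated as not coding: over transcripts annotated as protein coding alone, the vehicle median of AMH was 9.45 TPM, below the 13 TPM of GDF11. On the same basis TGFB2 had a vehicle median of 3.99 TPM and TGFB1 of 1.14 TPM, and 7 ligand genes in vehicle samples and 10 in nutlin samples reached 1 TPM.

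**Figure D2:**
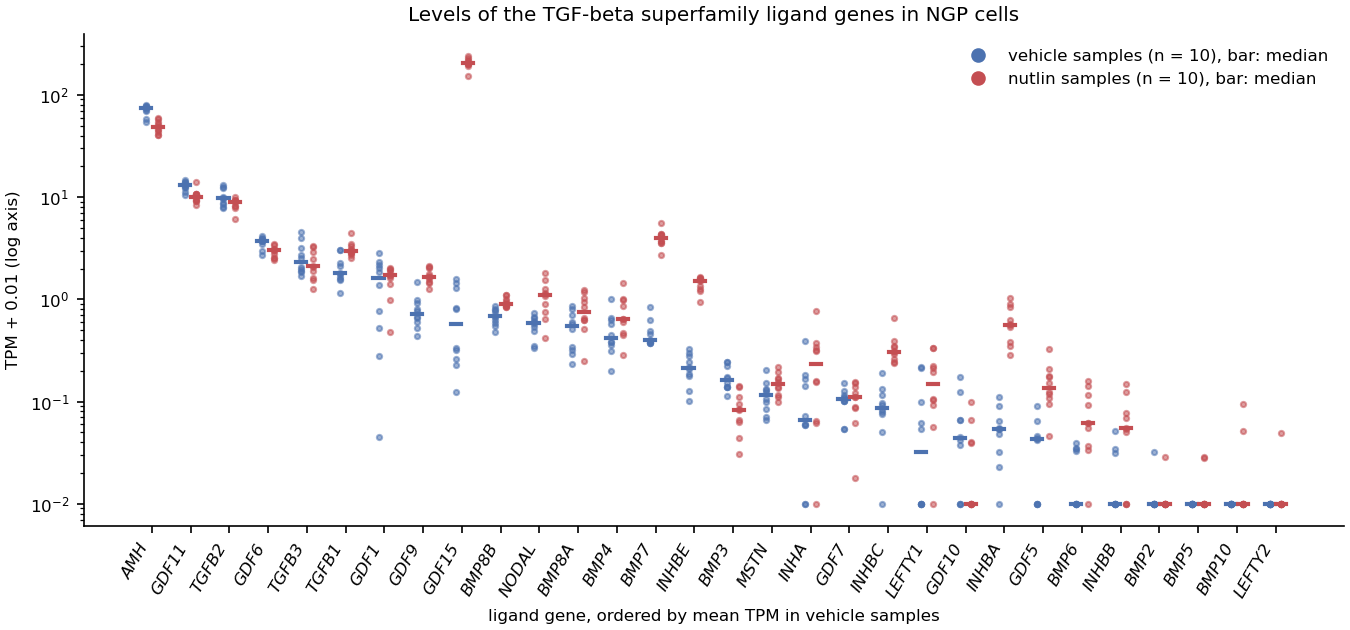
TPM of the ligand genes with at least 1 count in any sample, on a log axis after adding 0.01, each point a sample and each bar the median of 10 samples, ordered by the vehicle mean. AMH leads in vehicle samples at 74.2 TPM, and GDF15 rises from 0.562 TPM to 203 TPM, above AMH in every nutlin sample.

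GDF15, a stress-induced cytokine also known to act on appetite through the brainstem, lies on chromosome 19 (GRCh38, 18374731 to 18389176, plus strand, ENSG00000130513). It had 0.122 to 1.23 CPM in vehicle samples (median 0.364) and 146 to 226 CPM in nutlin samples (median 198). Every nutlin sample lay far above the highest vehicle sample. The difference was 392-fold (LFC 8.61 ± 0.14 SE, adjusted p = 1.02e-28, n = 10 against 10). The vehicle level rests on 2 to 21 counts per sample and varied with a CV of 72.6%, whereas the nutlin samples had 2138 to 3550 counts and a CV of 12%. The protein-coding transcript GDF15-201 held 98.0% of the GDF15 counts in nutlin samples and had an LFC of 8.90 ± 0.27 (adjusted p = 7.37e-17 over transcripts). The promoters of GDF15 and INHBA are shown because these were the ligands with the largest LFC. They are RefSeq windows from 250 bases before to 50 bases after the annotated start, on GRCh38.p14, and run 5′ to 3′ on the strand of the gene. Capitals mark the 20-base stretch closest to the p53 consensus element, which differs from that consensus at 3 positions in GDF15 and at 4 in INHBA. The GDF15 window is chr19:18385908-18386207 on the plus strand and the INHBA window is chr7:41703041-41703340 on the minus strand.
GDF15: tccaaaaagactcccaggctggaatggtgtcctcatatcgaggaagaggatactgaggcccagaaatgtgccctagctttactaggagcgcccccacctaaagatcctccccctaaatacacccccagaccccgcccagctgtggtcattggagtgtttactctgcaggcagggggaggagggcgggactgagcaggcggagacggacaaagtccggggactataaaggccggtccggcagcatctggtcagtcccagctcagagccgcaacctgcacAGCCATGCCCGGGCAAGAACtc
INHBA: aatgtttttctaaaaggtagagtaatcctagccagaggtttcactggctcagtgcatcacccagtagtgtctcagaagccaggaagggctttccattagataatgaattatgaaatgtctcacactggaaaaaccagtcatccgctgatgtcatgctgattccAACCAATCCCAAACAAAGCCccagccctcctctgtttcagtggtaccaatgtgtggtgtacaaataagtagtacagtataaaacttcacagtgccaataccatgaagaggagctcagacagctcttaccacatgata
A match with at most 3 mismatches was present in 5.2% of the 35116 promoter windows of that length in the table, and with at most 4 mismatches in 26%. The consensus is its own reverse complement, so both strands were read at once. Of the 32 windows of the 26 ligand genes with a window in the table, 2 had at most 3 mismatches (GDF15 and BMP10), 5 had at most 4 (also INHBA, GDF2 and BMP15) and none had at most 2, which 0.649% of all windows had. Of these 5 genes, BMP10, GDF2 and BMP15 were not tested for want of counts. The letters TATAAA were present on either strand in 8 of the 32 ligand windows, GDF15 and INHBA among them, and in 11.5% of all windows. These are matches of letters in 1 window per start and show neither binding nor use.

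Of the activin and inhibin subunits, INHBA, INHBE, INHBC and INHBB were higher after nutlin and INHA was not called. INHBA encodes the beta A subunit of activin A and of inhibin A. It lies on chromosome 7 (41667168 to 41705834, minus strand, GRCh38). It had 0 to 0.498 CPM in vehicle samples (median 0.148) and 1.09 to 2.78 CPM in nutlin samples (median 1.89), with no overlap. The LFC was 3.44 ± 0.28 (10.8-fold, adjusted p = 6.26e-12). The protein-coding transcript INHBA-201 had an LFC of 3.28 ± 0.52 (adjusted p = 3.87e-05), and INHBA-204, whose coding sequence is not defined, held 18.1% of the INHBA counts in nutlin samples and had 0 in every vehicle sample.

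INHBE encodes the beta E subunit, known mainly from liver. It had 0.133 to 0.619 CPM in vehicle samples (median 0.353) and 1.80 to 3.46 CPM in nutlin samples (median 2.52). The samples did not overlap, and the LFC was 2.76 ± 0.19 (6.77-fold, adjusted p = 1.23e-13). INHBC, the neighbour of INHBE on chromosome 12, encodes the beta C subunit. It had 0 to 0.332 CPM in vehicle samples and 0.410 to 1.12 CPM in nutlin samples, and its LFC was 1.95 ± 0.31 (adjusted p = 3.36e-06). INHBB, the beta B subunit of activin B, had 4 counts over all vehicle samples and 23 over all nutlin samples (LFC 2.17 ± 0.71, adjusted p = 0.0098), and the samples overlapped. Its LFC was 2.79 without vehicle replicate 10, and the call was lost in the 16 samples whose replicate number occurs in both conditions (LFC 1.55, adjusted p = 0.107). INHA encodes the alpha subunit that pairs with a beta subunit to form inhibin. It had 14 and 28 counts in all and an LFC of 0.91 with a 95% interval of -0.13 to 1.95 (adjusted p = 0.147).

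**Figure D3:**
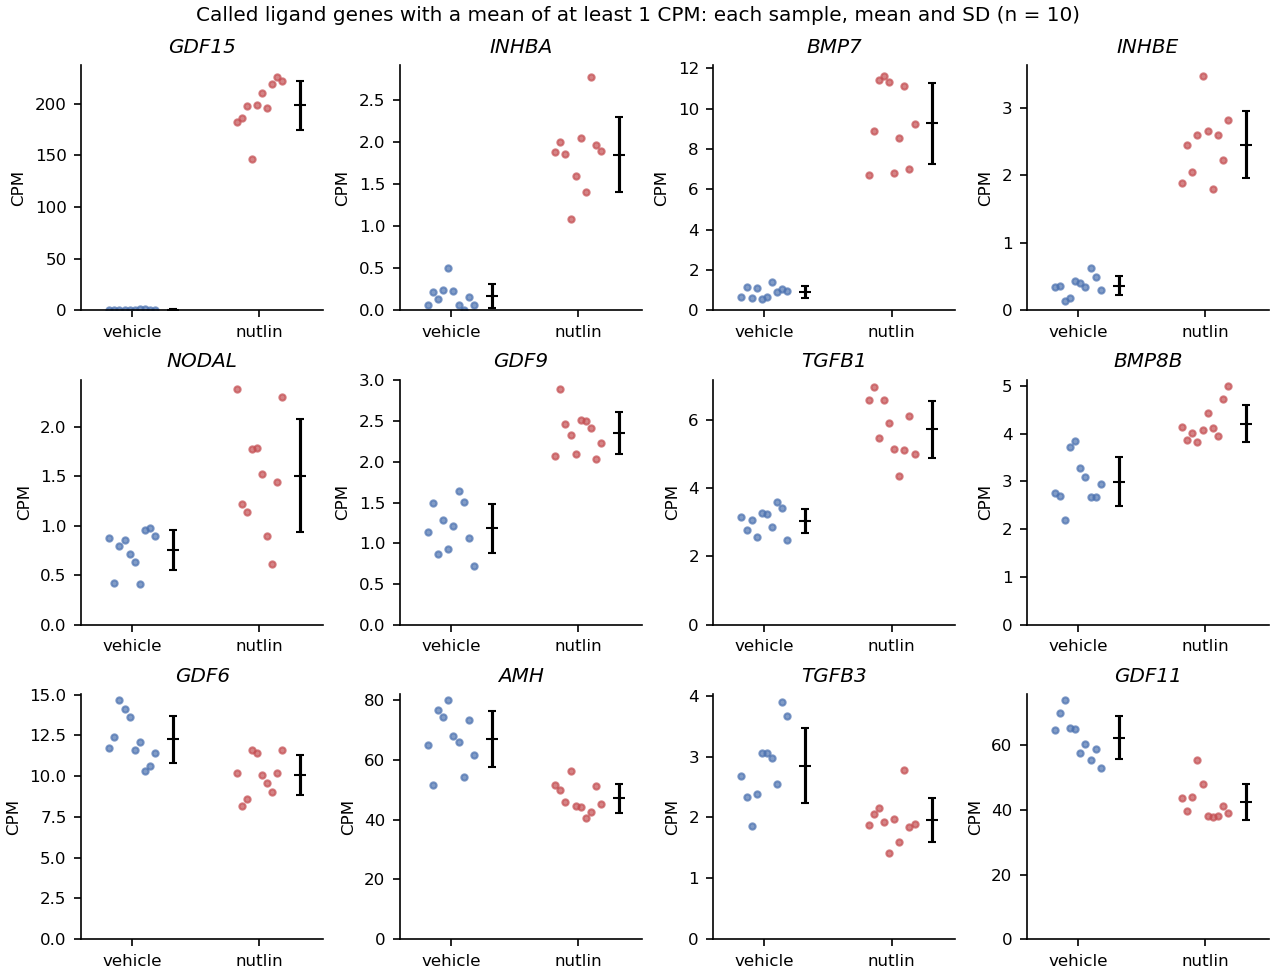
TMM-normalized CPM of the 12 called ligand genes whose mean reached 1 CPM, each point a sample, with the mean and SD of the 10 samples beside it, on linear axes from 0. In GDF15, INHBA, BMP7, INHBE, GDF9 and TGFB1 the lowest nutlin sample lies above the highest vehicle sample, and in the other 6 genes the samples overlap.

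Of the BMPs tested, BMP7, BMP8B, BMP6, BMP4 and BMP8A were higher after nutlin, BMP3 was lower and BMP2 was not called. BMP7, a ligand known for its part in kidney and skeletal development, had 0.569 to 1.40 CPM in vehicle samples (median 0.929) and 6.71 to 11.6 CPM in nutlin samples (median 9.07). The lowest nutlin sample was above the highest vehicle sample. The LFC was 3.34 ± 0.15 (10.2-fold, adjusted p = 8.47e-18). Both protein-coding transcripts with at least 10% of the BMP7 counts were higher: BMP7-201 with an LFC of 3.60 ± 0.27 and BMP7-202 with 2.67 ± 0.60.

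BMP8B, known from brown fat and germ cells, had 2.19 to 3.84 CPM in vehicle samples (median 2.85) and 3.83 to 4.99 CPM in nutlin samples (median 4.09). The groups touched, with 9 of 10 nutlin samples above the highest vehicle sample. The LFC was 0.49 ± 0.10 (1.40-fold, adjusted p = 7.79e-05). BMP8A, a near-identical paralog, had an LFC of 0.61 ± 0.26 (adjusted p = 0.0447), and reads shared by the pair may have been divided between them. BMP4, a ligand of sympathetic neuron development, had 0.284 to 0.759 CPM in vehicle samples and 0.410 to 1.45 CPM in nutlin samples (LFC 0.58 ± 0.22, adjusted p = 0.0248). The calls of both genes were lost when 1 library was left out. Without nutlin replicate 7 the adjusted p of BMP4 was 0.0706, and without vehicle replicate 7 that of BMP8A was 0.0782. BMP6, a regulator of hepcidin in the liver, had 4 counts over the vehicle samples and 26 over the nutlin samples (LFC 2.36 ± 0.61, adjusted p = 0.00127).

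BMP3, which opposes osteogenic BMPs, was the ligand with the lowest LFC among those called. It had 0.519 to 1.20 CPM in vehicle samples (median 0.805) and 0.123 to 0.684 CPM in nutlin samples (median 0.385). Of the nutlin samples, 7 lay below the lowest vehicle sample. The LFC was -1.13 ± 0.25 (2.19-fold lower, adjusted p = 0.000229). BMP2 had 1 count in each condition and gives no information on a difference.

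The 3 TGF-betas, which act on growth, matrix and immunity, did not move together. TGFB1 had 2.47 to 3.58 CPM in vehicle samples (median 3.11) and 4.36 to 6.95 CPM in nutlin samples (median 5.69), with no overlap. Its LFC was 0.92 ± 0.10 (1.89-fold, adjusted p = 1.53e-09). Its protein-coding transcript TGFB1-201 held 89.6% of its counts in vehicle samples and 94.0% in nutlin samples and had an LFC of 1.0 ± 0.11. TGFB2, the most abundant of the 3, had 19 to 26.8 CPM in vehicle samples (median 23.2) and 18.7 to 24.8 CPM in nutlin samples (median 23.1). The groups overlapped almost fully, and the LFC was -0.05 with a 95% interval of -0.16 to 0.06 (adjusted p = 0.475). Over protein-coding transcripts alone its LFC was 0.19 (adjusted p = 0.0257), under a scaling that moved the median of all genes up by 0.15. TGFB3 had 1.86 to 3.90 CPM in vehicle samples (median 2.83) and 1.42 to 2.78 CPM in nutlin samples (median 1.91), and 3 nutlin samples lay below the lowest vehicle sample. Its LFC was -0.54 ± 0.13 (1.45-fold lower, adjusted p = 0.000962). With effective transcript lengths as an offset the LFC of TGFB3 was -0.23 and the call was lost (adjusted p = 0.385).

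Among the other GDFs, GDF9 and GDF5 were higher, GDF11 and GDF6 were lower, and GDF7, GDF10, GDF1 and MSTN were not called. GDF9, an oocyte factor, had 0.722 to 1.64 CPM in vehicle samples (median 1.18) and 2.03 to 2.90 CPM in nutlin samples (median 2.37), with no overlap. Its LFC was 0.98 ± 0.14 (1.98-fold, adjusted p = 3.37e-07). GDF5, a factor of joint formation, had 9 counts over the vehicle samples and 52 over the nutlin samples (LFC 2.35 ± 0.47, adjusted p = 6.72e-05).

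GDF11, a regulator of axial patterning and neurogenesis, was the second most abundant ligand in vehicle samples. It had 52.9 to 73.9 CPM in vehicle samples (median 62.5) and 37.8 to 55.3 CPM in nutlin samples (median 40.4). Of the nutlin samples, 9 lay below the lowest vehicle sample. The LFC was -0.55 ± 0.07 (1.47-fold lower, adjusted p = 1.25e-08). The 2 protein-coding transcripts of GDF11 differed in their own tests: GDF11-201 had an LFC of -0.62 ± 0.07 (adjusted p = 8.17e-07) and GDF11-202 had 0.01 ± 0.12 (adjusted p = 0.987). GDF11-202 held 7.84% to 13.1% of the GDF11 counts in vehicle samples (median 10.4%) and 10.3% to 16.5% in nutlin samples (median 15.5%). In TPM its part was larger, with medians of 6.03 and 5.93 TPM, against 6.96 and 4.27 TPM for GDF11-201. With effective transcript lengths as an offset the LFC of GDF11 was -0.31 and the call was kept (adjusted p = 0.000681, edgeR). The difference between the transcripts was not tested.

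GDF6, a paralog of GDF5 with a part in eye and skeletal development, had 10.3 to 14.7 CPM in vehicle samples (median 11.9) and 8.18 to 11.6 CPM in nutlin samples (median 10.1). Of the nutlin samples, 7 lay below the lowest vehicle sample. The LFC was -0.29 ± 0.08 (1.22-fold lower, adjusted p = 0.0015). When all genes were counted over protein-coding transcripts alone, the call was lost (LFC -0.13, adjusted p = 0.144). The only transcript of GDF6 in the files is protein coding, so its own counts were the same and the move is that of the scaling, which shifted the median of all genes by 0.15. GDF7, a factor of dorsal spinal cord development, had an LFC of 0.04 with a 95% interval of -0.47 to 0.55. MSTN, the inhibitor of muscle growth, had an LFC of 0.40 (-0.11 to 0.90), and GDF10 had 16 and 7 counts in all (LFC -1.09, -2.46 to 0.28).

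GDF1, a left-right patterning factor, was the ligand whose replicates were most at odds with its abundance. It had 0.0688 to 5.96 CPM in vehicle samples (median 3.82) and 1.05 to 4.68 CPM in nutlin samples (median 3.96). The lowest vehicle sample held 1 count and the highest 102. Its biological coefficient of variation was 0.544, against a trend of 0.151 for genes of the same abundance, and its LFC was 0.16 with a 95% interval of -0.47 to 0.79 (adjusted p = 0.694). GDF1 shares exons with CERS1, a ceramide synthase gene, on the same strand. The CV of CERS1 alone was 7.6% in vehicle samples and 11.6% in nutlin samples, and that of the sum of both genes was 12.4% and 14.1%, so the sum varied more than CERS1 alone. Counted as 1 gene, an alternative chosen after seeing the data, they had an LFC of -0.28 (adjusted p = 0.00262), but most of that count is from CERS1, whose medians were 20.5 and 16.8 CPM. Whether reads were divided wrongly between the 2 genes was not tested.

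NODAL, a morphogen of the early embryo, had 0.409 to 0.975 CPM in vehicle samples (median 0.827) and 0.618 to 2.38 CPM in nutlin samples (median 1.48). The groups overlapped, with 8 of 10 nutlin samples above the highest vehicle sample. The LFC was 1.0 ± 0.22 (2.0-fold, adjusted p = 0.000249). LEFTY1, an inhibitor of NODAL and a near-identical paralog of LEFTY2, had 12 and 27 counts in all and an LFC of 1.05 with a 95% interval of -0.09 to 2.20 (adjusted p = 0.126).

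AMH, anti-Müllerian hormone, had 51.5 to 80.1 CPM in vehicle samples (median 67.2) and 40.5 to 56.2 CPM in nutlin samples (median 45.7). Of the nutlin samples, 8 lay below the lowest vehicle sample. The LFC was -0.51 ± 0.07 (1.42-fold lower, adjusted p = 1.86e-07). Most of the AMH signal came from transcripts that are not annotated to make the protein. AMH-202, a retained-intron transcript, held 58.9% of the AMH counts in vehicle samples and 57.9% in nutlin samples. AMH-203, whose coding sequence is not defined, held 19% and 17.9%, and the protein-coding AMH-201 held 22.1% and 24.2%. In TPM the order was another, with AMH-203 the largest. The vehicle medians were 35.6 TPM for AMH-203, 28.1 for AMH-202 and 9.45 for AMH-201. The nutlin medians were 22.4, 17.9 and 6.92 TPM. All 3 were called lower: AMH-202 with an LFC of -0.52 ± 0.08, AMH-203 with -0.57 ± 0.09 and AMH-201 with -0.36 ± 0.12 (adjusted p = 0.0353 for AMH-201). When the gene was counted over protein-coding transcripts alone, the call was lost (LFC -0.22, adjusted p = 0.089), under the scaling shift of 0.15 given for TGFB2.

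**Figure D4:**
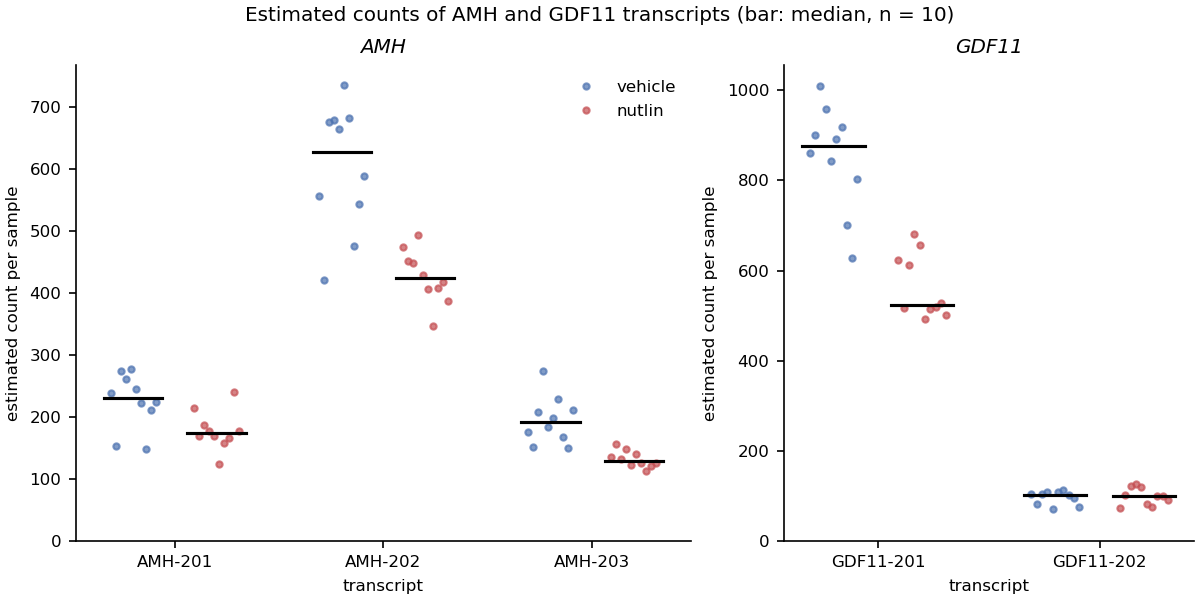
Estimated counts per sample, not normalized, of the AMH and GDF11 transcripts with at least 10% of the counts of the gene, each point a sample and each bar the median of 10 samples. By counts, though not by TPM, the retained-intron transcript AMH-202 is the largest of AMH in every sample. GDF11-201 is lower in nutlin samples while GDF11-202 lies at the same counts in both conditions.

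Of the single transcripts of ligand genes, 19 were higher after nutlin, 6 lower, 38 not called and 22 not tested. Of all 119877 transcripts tested, 12.7% were higher and 10.7% lower. The deposited values hold no estimate of the error of the division of reads between transcripts, so that this error is not in the transcript tests.

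The LFC of the called type I and type II receptors lay between -1.07 and 1.54. Of 7 type I receptors, 4 were lower, 1 was higher and 2 were not called (median LFC -0.35), or 71.4% called against 58.8% of all genes tested. The BMP receptors BMPR1A (34.8 to 21.7 CPM at the median, LFC -0.70 ± 0.04) and BMPR1B (-0.35 ± 0.06), the TGF-beta receptor TGFBR1 (-0.42 ± 0.05) and the activin receptor ACVR1B (-0.38 ± 0.04) were lower, and ACVR1C, at under 1 CPM, was higher (0.75 ± 0.31). ACVR1 had an LFC of 0.01 ± 0.07. All 5 type II receptors were called. Among genes averaging 1 CPM or more, 4 of 6 type I and 4 of 4 type II receptors were called, against 12159 of 15168 of all genes tested. BMPR2 (0.34 ± 0.07), ACVR2A (0.23 ± 0.05) and AMHR2 (1.54 ± 0.51) were higher, and TGFBR2 (-1.07 ± 0.22) and ACVR2B (-0.17 ± 0.04) were lower. The smallest of these LFCs are near the 0.15 by which counting protein-coding transcripts alone moved the median of all genes. AMHR2, the receptor of AMH, had medians of 0.0546 TPM in vehicle and 0.238 TPM in nutlin samples. TGFBR2, the type II receptor of the TGF-betas, had medians of 0.370 and 0.182 TPM.

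Of 10 co-receptors and decoys, 5 were higher, 1 was lower and 4 were not called, or 60% called against 58.8% of all genes tested. RGMA, a BMP co-receptor, was the one with the largest LFC. It had 5.26 to 8.53 CPM in vehicle samples and 36.7 to 47.7 CPM in nutlin samples, with no overlap (6.09-fold, LFC 2.61 ± 0.06). TGFBR3, or betaglycan, had an LFC of 0.79 ± 0.18, BAMBI, a decoy receptor, had 0.27 ± 0.08, and RGMB was lower (-0.24 ± 0.04). For the GDF15 receptor, the 2 parts differed in level. GFRAL had 4 counts in all vehicle samples and 5 in all nutlin samples (LFC 0.22, adjusted p = 0.843). RET had 312 to 468 CPM in vehicle samples and 512 to 610 CPM in nutlin samples (1.45-fold, LFC 0.53 ± 0.06), with no overlap.

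Of 16 secreted antagonists, 15 were tested, of which 5 were higher, 4 lower and 6 not called (median LFC -0.04). That is 60% called, near the 58.8% of all genes tested. FST, or follistatin, which binds activins, had 0.0612 to 0.569 CPM in vehicle samples and 1.16 to 4.25 CPM in nutlin samples (10.1-fold, LFC 3.34 ± 0.27, adjusted p = 3.93e-12). NOG, or noggin, which binds BMPs, had 0 to 0.873 CPM in vehicle samples and 2.26 to 4.26 CPM in nutlin samples (6.83-fold, LFC 2.77 ± 0.24, adjusted p = 1.71e-11). Neither gene overlapped between the conditions. The BMP antagonists CHRDL1 (3.56-fold lower, LFC -1.83 ± 0.17) and NBL1 (2.58-fold lower, LFC -1.37 ± 0.07) were among those called lower.

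Of 13 genes of latency and processing, 8 were higher and 5 were not called (median LFC 0.33). That is 61.5% called, near the 58.8% of all genes tested, of which 32.3% were higher. LTBP2, of the latent TGF-beta binding protein family, had an LFC of 1.46 ± 0.12. THBS1, or thrombospondin 1, which can activate latent TGF-beta, had 1.28 ± 0.18. The called genes of the list with the smallest LFC and an average of 1 CPM or more were PCSK6 (0.27 ± 0.05) and LTBP3 (0.29 ± 0.10). The proprotein convertase gene FURIN (0.70 ± 0.07) and the procollagen protease gene BMP1 (0.70 ± 0.05), which is not a ligand despite its name, were also higher.

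All 14 SMADs and regulators of SMADs were called, 6 higher and 8 lower (median LFC -0.21). All 14 averaged 1 CPM or more, and of all genes tested with such an average 12159 of 15168 were called. SMAD3 had 1.95 to 3.79 CPM in vehicle samples and 7.73 to 10.7 CPM in nutlin samples, with no overlap (3.36-fold, LFC 1.75 ± 0.10), and SKIL, a SMAD co-repressor, had an LFC of 0.88 ± 0.09. TGIF2 (-0.71 ± 0.05), another co-repressor, and SMURF1 (-0.69 ± 0.04), a ubiquitin ligase, were the lowest. SMAD4, the shared partner of the receptor SMADs, had an LFC of -0.46 ± 0.04. Of 13 target genes of the pathway, 10 were higher, 1 was lower and 2 were not called (median LFC 0.85). That is 84.6% called, against 58.8% of all genes tested, and 10 of the 11 targets averaging 1 CPM or more. ID3, a BMP target, had 129 to 228 CPM in vehicle samples and 392 to 471 CPM in nutlin samples (2.60-fold, LFC 1.38 ± 0.06). SMAD6, an inhibitory SMAD, was lower (-0.63 ± 0.07) and SMAD7 was higher (0.22 ± 0.05). PMEPA1 had an LFC of -0.07 (adjusted p = 0.181). Over the 74 pathway genes without the ligands, 73 were tested, of which 35 were higher, 19 lower and 19 not called, or 74% called against 58.8% of all genes tested. Among genes averaging 1 CPM or more, 48 of 54 pathway genes were called, against 12159 of 15168 of all genes tested.

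**Figure D5:**
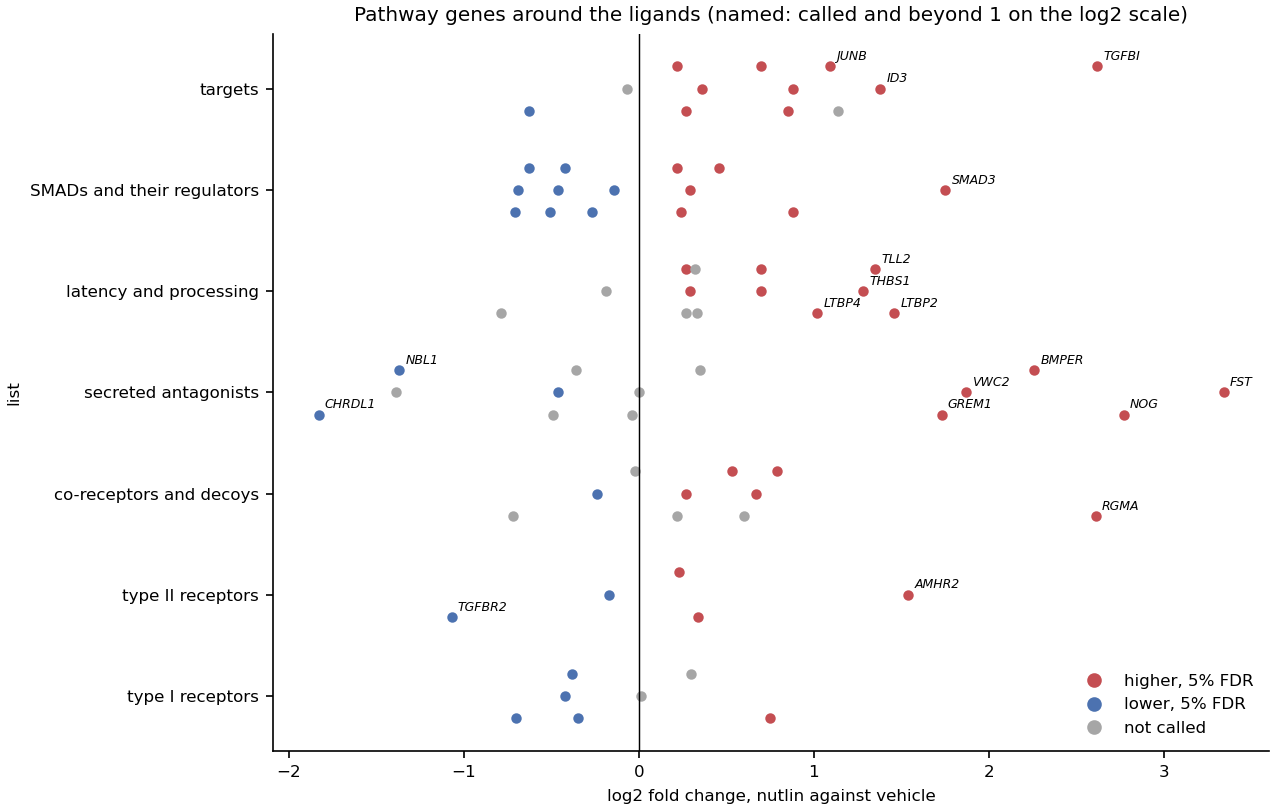
Log2 fold change of the tested pathway genes reported here, nutlin against vehicle, 1 row for each list and 1 point for each gene, spread vertically for legibility and coloured by the call at 5% FDR. Of the genes drawn, FST lies farthest to the right at 3.34, followed by NOG at 2.77, and the type I receptors lie between -0.70 and 0.75.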

How the data were processed

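The authors quantified paired-end reads of TruSeq stranded mRNA libraries with kallisto 0.42.4 on an index of GRCh38 (Ensembl release 85), and deposited estimated counts, TPM and effective lengths (another value, in bases) for 198968 transcripts per sample. The strand setting is not given in the sources used here, so reads of genes that overlap on opposite strands may be mixed. Of these transcripts, 191106 matched GENCODE release 44 by identifier without version. Those left out held 3.22% to 3.34% of the estimated counts in vehicle samples and 4.05% to 4.29% in nutlin samples.

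Estimated counts were summed per gene and rounded. The test took the 27697 protein-coding and lncRNA genes that reached 1 count in both conditions, and was run with edgeR 4.0.16 (R 4.3.3): TMM normalization, quasi-likelihood F-test on all 20 samples with condition alone, and Benjamini-Hochberg adjustment at 5% FDR. The SE is the LFC divided by the square root of F. Gene TPM is the sum of the deposited TPM. Transcripts were tested alike. Alternatives used DESeq2 1.42.0, limma 3.58.1, other filters, scalings and sample sets. In data simulated for nutlin against vehicle (27258 genes), 79.1% of 1.5-fold, 97% of 2-fold and 100% of 4-fold changes were recovered. The 66 to 67 genes changed per fold size were drawn only from genes above a minimum mean count. Their simulated spread followed the trend for their abundance. These shares therefore do not apply to ligands with few counts.

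Values per condition are given for each called ligand gene averaging 1 CPM or more. Of each pathway list, the extreme called genes above that mean and the receptors of described ligands were named, and other genes where a sentence turns on them. A few genes of these lists enter the counts and medians but are not reported here by name. The ligands and lists were chosen with earlier results of these data known.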

Additional observations from a re-analysis of the deposited data

Results flagged for a closer look

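In 54 groups of 10 samples (27 ligand genes in each condition), 5 had a sample that stood apart from the others by Dixon's criterion. It flags about 1 in 20 groups of normally distributed values by chance. That rate does not hold for groups with many counts of 0, such as those of BMP2 and the vehicle group of INHBB. BMP2 had 1 count in a single sample of each condition, at 0.0671 CPM in vehicle replicate 3 and 0.0641 CPM in nutlin replicate 8, and 0 in the others. INHBA had 0.498 CPM in vehicle replicate 7, against 0 to 0.245 CPM in the other vehicle samples. Its LFC was 3.76 without that sample and 3.44 with it (adjusted p = 1.02e-12 and 6.26e-12, edgeR). INHBB had 0.138 CPM in vehicle replicate 10, against 0 to 0.0711 CPM in the other vehicle samples, and its LFC was 2.79 without it (adjusted p = 0.00248, edgeR). INHBC had 1.12 CPM in nutlin replicate 7, against 0.410 to 0.644 CPM in the other nutlin samples, and its LFC was 1.80 without it (adjusted p = 9.47e-06, edgeR). The 3 calls were kept without these samples.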

How the results depend on the processing

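Of the 19 called ligand genes, 12 kept their direction and their call under each alternative in which they were tested. With the filterByExpr filter, under which low genes were not tested, 9 ligand genes and 8 of their transcripts were called higher, against 14 and 19. With protein-coding transcripts only, which moved the median LFC of all genes by 0.15, 3 ligand genes were called lower against 5, AMH (adjusted p = 0.089) and GDF6 (0.144) losing their calls, and TGFB2 turned to 0.19. Of the pathway genes, 37 were then called higher and 15 lower, against 35 and 19. Replicate numbers did not pair the samples (correlations of -0.04 to 0.08, own number best in 1 of 8). With a replicate block over the 16 samples with a shared number, 10 transcripts of ligand genes were called higher and 3 lower, against 19 and 6, and 14315 of all genes were called, against 15113 in the same samples without it. The block turned TGFB2 to 0.02, BMP2 to 0.00 and GDF7 to -0.12, and the calls of BMP4 (adjusted p = 0.125), BMP6 (0.0604) and INHBB (0.211) were lost. In the same 16 samples without the block, TGFB2 was 0.01, GDF7 -0.08, and INHBB (adjusted p = 0.107) and BMP4 (0.0688) were lost. TGFB2 was 0.03 with filterByExpr, BMP2 0.00 with DESeq2 size factors and 0.05 with protein-coding transcripts only or without nutlin replicate 7, and GDF7 -0.13 with limma voom and, with 1 library left out, -0.01 (nutlin replicate 7) to 0.09 (vehicle replicate 10). GDF1 was -0.28 when counted with CERS1, which gives most of that count. None of these reversed genes was called at first. BMP8A was lost with limma voom (adjusted p = 0.0757), and BMP8A and BMP4 with effective lengths as offset (0.0555 and 0.0565) and at 1% FDR, and TGFB3 with the offset (0.385). LEFTY1 was called with limma voom (adjusted p = 0.0424) and without vehicle replicate 7 (0.0423), and GDF10 in the 16 samples (0.0488). The causes were not tested. Without a single library of the 3 that stood apart, 13 to 14 ligand genes were called higher and 5 lower. These libraries and the alternative with CERS1 were chosen after seeing the data. Depth limits the genes below 1 CPM: BMP4, BMP6, BMP8A, GDF5, INHBB and INHBC among the genes called higher, and BMP3 among those called lower.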
